A study of Mus musculus with 6 samples.

Results

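The septins are a family of GTP-binding proteins that join end to end into rods, filaments and rings beneath the plasma membrane. The data described here are the transcript levels of 9 of its mouse genes, Sept1, Sept2, Sept3, Sept6, Sept7, Sept8, Sept9, Sept10 and Sept11, in cDC1s (conventional dendritic cells, type 1), which present captured antigen to CD8 T cells. The 9 genes were taken from a table of 32285 features by matching Ensembl gene identifiers to GENCODE M21 names, and all 9 passed the filter on low counts. They were proposed with the difference between knockout and wild-type cells already known, so that difference is given as a description and no test is drawn from it. The cells were sorted from the mLN of C57BL/6 mice 24 h after 50 µg of HDM, an extract of house dust mites, had been given through the nose. The groups were 3 wild-type (WT) libraries and 3 libraries of the genotype Vps33BdeltaDC (KO), a conditional deletion of Vps33b, which encodes a Sec1/Munc18-family protein of endosomal and lysosomal trafficking. The driver of the deletion is not named in the labels. Nor is it said that each library came from its own animal, so p-values speak only of how far these libraries vary, and that variation may be technical. All libraries were from HDM-treated mice, and no other cell type was sequenced, so whether Sept3 is restricted to cDC1s could not be checked here.

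Septins fall into subgroups by sequence, and a filament is built from rods in which each subgroup has its own place. The SEPT2 group holds Sept1, Sept2, Sept4 and Sept5. The SEPT3 group holds Sept3, Sept9 and Sept12, the SEPT6 group holds Sept6, Sept8, Sept10, Sept11 and Sept14, and Sept7 stands alone. Septins are known for the contractile ring of dividing cells, for the shape and stiffness of the cell cortex in migrating lymphocytes, and for barriers that keep membrane proteins in place. Sept3 is best known from neurons.

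The coding sequences show how near the family members are to each other, which bears on whether their reads can be told apart. The stretches below hold the 48 coding bases from the first codon of the P-loop, the GTP-binding loop common to the family. They come from GENCODE M21 transcripts of the mm10 build and are written 5′ to 3′ in the sense of the gene, with capitals at the letters that differ from Sept3. Sept3 and the other members of its subgroup are shown first, then 1 gene of each other subgroup.
Sept3: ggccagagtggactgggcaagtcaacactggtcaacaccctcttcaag
Sept9: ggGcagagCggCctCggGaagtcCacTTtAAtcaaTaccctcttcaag
Sept12: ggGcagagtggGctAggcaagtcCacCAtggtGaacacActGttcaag
Sept2: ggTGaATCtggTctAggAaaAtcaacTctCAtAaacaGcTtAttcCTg
Sept6: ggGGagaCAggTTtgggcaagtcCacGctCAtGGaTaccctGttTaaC
Sept7: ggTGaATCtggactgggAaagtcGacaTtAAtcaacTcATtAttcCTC

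Sept9 differed from Sept3 at 11 of these 48 bases and Sept12 at 9, whereas Sept6, Sept7 and Sept2 differed at 16, 17 and 18. In all 13 annotated mouse septins the stretch is split over 2 exons, and in all 13 the junction lies after its first base. In Sept3 it covers coding bases 163 to 210 of the transcript used, counted from its start codon, and spans chr15:82279606-82283105 on the plus strand with the intron. Identity between coding sequences was taken over aligned bases only, with gaps and unaligned ends left out. On this measure Sept3 was 72.8% identical to Sept9 (982 aligned bases, of 1752 coding bases in Sept9) and 67.7% to Sept12 (977 aligned bases). Pairs within a subgroup had identities of 66.5% to 75.7% (19 pairs), and pairs from different subgroups 59.7% to 67.3% (59 pairs). No stretch of 100 bases in the annotated transcripts of Sept3 (6836 such stretches) occurs in a transcript of any other gene, and none of the 13 septins shares one with another of the 13. Reads were 150 bases long and paired, so a full-length read within a transcript of Sept3 could not match an annotated paralog exactly.

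Some members share exons with other annotated features, and their counts are less certain. Of the exon bases of Sept2, 41.8% are shared with a second feature also named Sept2 (ENSMUSG00000116048), which was at 0 in all 6 libraries. Small shares were found on the opposite strand for Sept6 (3.12%, with Gm15008), Sept1 (2.53%, with Zfp553) and Sept7 (2.11%, with the pseudogene Gm48272). Gm48272 was not among the counted features. Whether counting used strand is not stated in the labels. The exons of Sept3 (ENSMUSG00000022456, chromosome 15, 82274893 to 82294574, plus strand) overlap no other annotated gene.

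The libraries held 14949229 to 18450678 counts in WT and 11755944 to 17434247 in KO. Vps33b, the deleted gene, was at 13.8 to 19.1 CPM (counts per 1000000 of the TMM-scaled library) in WT and 5.0 to 8.29 CPM in KO, lower in each of the 3 KO libraries than in any WT library. Defining cDC1 transcripts were present in both groups. Irf8, the transcription factor that specifies cDC1s, was at 1244 CPM or more in every library, and Clec9a, their receptor for dead cells, at 50.8 CPM or more. Of 12 marker lists for cDC1s, mature dendritic cells and other cell types, the summed levels of the groups overlapped for 10. The mature list summed to 27440 to 28280 CPM in WT and 28590 to 34440 CPM in KO, which did not overlap. Of its 20 genes, 18 lay above 0 on the log2 fold change scale and 2 below (median 0.19). By edgeR, 3 had an unadjusted p under 0.05, all higher in KO, where 2.71% of all genes were. Some single markers differed where the sums, which a few abundant genes carry, did not. In the plasmacytoid dendritic cell list, 7 of 10 tested genes lay below 0 on the log2 fold change scale (median -0.5). Its marker Siglech was at 3.85, 5.34 and 12.6 CPM in WT and 3.33, 0 and 1.41 CPM in KO (-2.32 ± 0.78), and Ly6d was at -1.61 ± 0.63 with overlapping groups. Cd14, of the monocyte list, was at 14.9 to 28.4 CPM in WT and 3.48 to 10.6 CPM in KO (-1.75 ± 0.41). The monocyte list as a whole had 8 of 14 tested genes above 0 and 6 below (median 0.1). It summed to 237.7 to 497.5 CPM in WT and 240.6 to 877.3 CPM in KO. Most of the nerve list's sum was Mbp, which is also transcribed in blood cells. The list was lower in KO without overlap both with Mbp and without it, at 5.0 to 6.09 CPM in WT and 3.86 to 4.78 CPM in KO without it. The part of these markers' cells in the Sept3 values was not tested. Its members Sox10, Snap25, Nefl and Map2 were at 0 in all 6 libraries.

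Sept3 was the member with the clearest difference between the groups. WT libraries held 5.66, 6.22 and 4.02 CPM of it, and KO libraries 1.38, 1.23 and 1.32 CPM. Each KO library lay below each WT library. The KO libraries lay closer to each other than the counting interval given below is wide. Their small SD is thus no measure of how alike they were. Mean levels were 5.30 ± 1.14 CPM for WT and 1.31 ± 0.0759 CPM for KO (SD, 3 libraries a group). The KO mean was 24.7% of the WT mean, and the fitted log2 fold change was -2.0 ± 0.44 (SE). These levels rest on few reads. Sept3 had 103, 92 and 76 counts in WT and 19, 21 and 15 in KO. The lowest WT library had an exact 95% Poisson interval of 3.17 to 5.04 CPM. The KO library with the widest interval had one of 0.74 to 2.18 CPM. Sept3 was chosen for this difference, so no test is drawn from these intervals. These intervals cover counting error only, and the labels name no molecular identifiers. By its mean level Sept3 stood above 19.7% of the 12568 genes tested, so it is a low transcript in both groups. In bulk samples, fewer cells that transcribe a gene and less RNA per cell cannot be told apart.

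Over all genes, edgeR's quasi-likelihood test with Benjamini-Hochberg adjustment called 0 of 12568 genes (0%) at an adjusted p under 0.05, and 725 genes (5.77%) had an unadjusted p under 0.05. DESeq2 called 10 of 12553 genes (0.0797%), none of them among the 9 septins, and limma-voom called 0. Of the 9 members, 5 lay below 0 on the log2 fold change scale, where 49.4% of all genes did. Of the 9 members, 1 (Sept3) had an unadjusted p under 0.05, in the direction of lower in KO, where 3.06% of all genes did. A log2 fold change as low as that of Sept3 or lower was found for 56 genes (0.446%). The gene was chosen from this contrast, so these shares only place it.

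**Figure D1:**
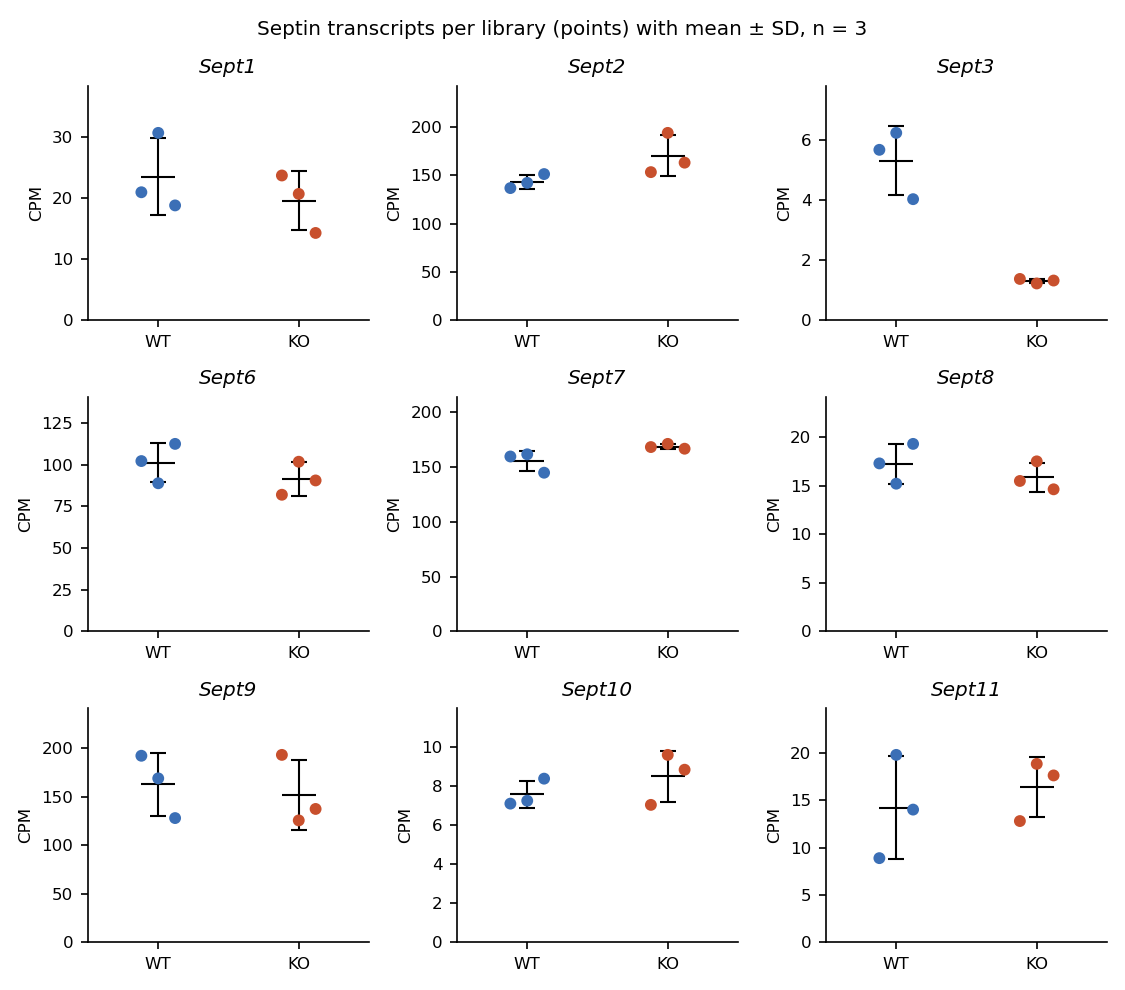
Level of each of the 9 septins in CPM (vertical axes, starting at 0, with a separate scale for each gene) in the 3 WT libraries (blue points) and 3 KO libraries (red points), with bars at the mean and whiskers at ± 1 SD. Sept3 shows separated groups, at 4.02 to 6.22 CPM in WT and 1.23 to 1.38 CPM in KO, while the groups overlap for Sept1, Sept6, Sept8, Sept9, Sept10 and Sept11 and lie close together for Sept2 and Sept7.

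Sept9 is the other septin of the SEPT3 group in these cells, a widely transcribed gene whose product occupies the place in the rod that Sept3 can also take. Its level was 192, 169 and 128 CPM in WT and 193, 126 and 137.5 CPM in KO. One library of each group was at the top and the groups overlapped widely. The log2 fold change was -0.10 ± 0.19 (SE), and it turned to 0.04 when WT replicate 1 was left out and to 0.01 when KO replicate 2 was. Per exon length, Sept3 made up 3.25%, 4.04% and 3.46% of the summed SEPT3 group in WT and 0.807%, 1.10% and 1.09% in KO, the rest being Sept9. Sept12, a testis septin and the third gene of the group, was at 0 in all 6 libraries.

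In the SEPT2 group, whose members sit at the ends of the rod, Sept2 and Sept1 were the genes counted in number. Sept2 was at 137, 142 and 151 CPM in WT and 153, 194 and 163 CPM in KO. In CPM, all KO libraries lay above all WT libraries by a small margin. As counts per exon length scaled to the same sum in each library (TPM), the groups overlapped. They were at 56.73 to 67.24 TPM in WT and 64.63 to 76.19 TPM in KO. The log2 fold change was 0.25 ± 0.13. It was 0.13 without KO replicate 2, the library with the highest value, and 0.32 without KO replicate 1. Sept1, a septin abundant in lymphocytes, was at 20.9, 30.6 and 18.8 CPM in WT and 23.7, 20.7 and 14.3 CPM in KO. WT replicate 2 was the highest and KO replicate 3 the lowest, and the groups overlapped, with a log2 fold change of -0.23 ± 0.25. Without WT replicate 2 that value was -0.01. T cells and B cells also transcribe Sept1, and the summed T-cell list was at 276.5 to 363.3 CPM in WT and 256.3 to 327.6 CPM in KO. The B-cell list was at 241.5 to 612.6 CPM and 329.8 to 724.4 CPM, and their part in the Sept1 values was not tested.

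Sept7, the only member of its subgroup and a component of every canonical rod, varied little between libraries. It was at 160, 162 and 145 CPM in WT and 168, 171 and 167 CPM in KO. In CPM the KO libraries lay just above the WT libraries. The groups overlapped in TPM, at 44.13 to 48.73 TPM in WT and 45.3 to 49.88 TPM in KO. Sept7 had a log2 fold change of 0.12 ± 0.12. Its coefficient of variation was 5.91% in WT and 1.34% in KO. The KO value was the lowest among the 9 genes, and in WT Sept2 was lower at 5.09%. With Sept2, Sept7 was 1 of 2 members whose groups did not overlap in CPM in the direction of higher in KO. Sept3 was 1 of 1 in the direction of lower. Over all genes tested, 5.46% did not overlap with KO higher and 5.19% with KO lower.

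The SEPT6 group pairs with the SEPT7 position in the rod, and its 4 detected members had overlapping groups. Sept6, an X-linked gene of blood cells, was at 102, 88.8 and 112 CPM in WT and 81.9, 102 and 90.5 CPM in KO (log2 fold change -0.15 ± 0.14). Sept8 was at 15.2 to 19.3 CPM in WT and 14.6 to 17.5 CPM in KO (-0.12 ± 0.21). Sept10 was at 7.09 to 8.36 CPM in WT and 7.03 to 9.58 CPM in KO (0.17 ± 0.27). These 3 genes varied little between libraries. Sept11 was the least steady, at 8.90, 19.8 and 14.03 CPM in WT and 12.8, 18.9 and 17.6 CPM in KO. WT replicate 1 was the lowest of all 6 libraries. Its coefficient of variation in WT was 38.3%, and its log2 fold change of 0.23 ± 0.29 became -0.03 without WT replicate 1.

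The 8 listed paralogs of Sept3 thus lay between -0.23 and 0.25 on the log2 fold change scale, 4 below and 4 above 0, with a median of 0.01. The median of all genes tested was 0.004. The standard errors of the 8 ran from 0.12 to 0.29. Outside the 9 members, Sept5 lay at -1.12 ± 0.51 and Sept4 at 0.45 ± 1.00.

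**Figure D2:**
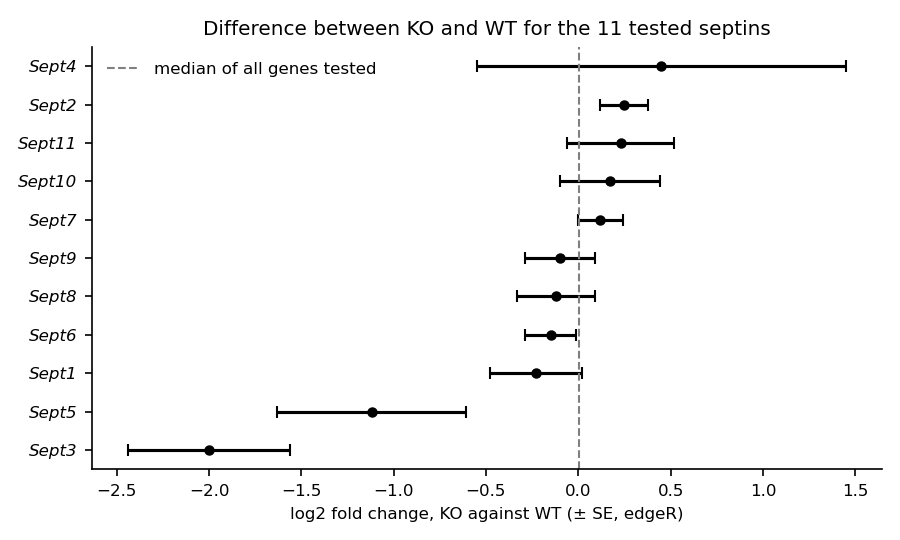
Log2 fold change of KO against WT (horizontal axis, points, with whiskers at ± 1 SE from edgeR) for the 11 septins with enough counts to be tested, and the median of all genes tested as a dashed line. Sept3 lies at -2.0 and its 8 listed paralogs between -0.23 and 0.25, while Sept5 (-1.12) and Sept4 (0.45) have the widest whiskers.

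Measured against each of the 8 listed paralogs within the same library, Sept3 was lower in KO each time. This ratio does not depend on how libraries are scaled. Sept4 and Sept5 were not in this comparison, and Sept5 had a log2 fold change of -1.12 ± 0.51 of its own. The log2 ratio of Sept3 counts to Sept9 counts was -5.09, -4.76 and -4.99 in WT and -7.13, -6.68 and -6.70 in KO. The 3 KO ratios lay below the 3 WT ratios, with a difference of means of -1.89. To Sept7 the difference was -2.12, and it was smallest in size to Sept1 (-1.73) and largest to Sept11 (-2.26). For each of the 8 paralogs the KO libraries lay below all WT libraries. The ratios share the Sept3 counts, so they are not 8 separate measurements. Sept3 was chosen for its difference between the groups and these paralogs differed little, so lower ratios in KO follow from that choice.

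**Figure D3:**
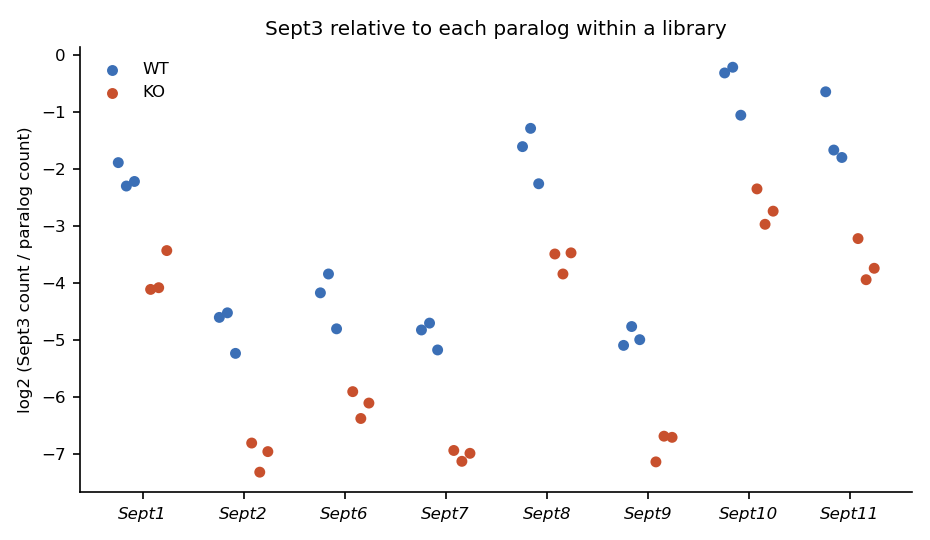
Log2 ratio of the Sept3 count to the count of each of 8 paralogs (horizontal axis) within each library, WT in blue and KO in red. The KO points lie below the WT points for each of these 8, by -1.73 for Sept1 to -2.26 for Sept11 between group means. Sept3 was chosen for its difference between the groups.

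The order of the septins by abundance is compared per length, in the unit TPM (counts divided by the length of the annotated exons and scaled to the same sum in each library). Sept9 (69.8 ± 16.25 TPM, SD over the 6 libraries) and Sept2 (65.3 ± 6.58 TPM) were the most abundant, and the order of this pair changed between libraries, with Sept9 above Sept2 in 3 of 6. Sept7 followed at 46.4 ± 2.40 TPM, below Sept2 in all 6 libraries. Sept6 (32.6 ± 4.93 TPM) and Sept1 (25.9 ± 6.37 TPM) had overlapping ranges. Then came Sept8 (9.12 ± 1.36 TPM) and Sept10 (8.57 ± 0.942 TPM), whose ranges also overlapped, and Sept11 (5.34 ± 1.21 TPM), below Sept10 in all 6. Sept3 was the last of the 9 in both groups, at 2.73 ± 0.497 TPM in WT and 0.643 ± 0.0690 TPM in KO (SD, n = 3 each). With only the exon bases that no other feature shares, Sept2 was at 106 ± 9.09 TPM in WT and 119 ± 10.7 TPM in KO, above Sept9.

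The makeup of the family by subgroup was similar in the 2 groups. The 13 septins summed to 276 ± 14.8 TPM in WT and 261 ± 25.5 TPM in KO. The SEPT2 group made up 34.7 ± 2.73% of this sum in WT and 36.3 ± 2.69% in KO, and the SEPT6 group 21.2 ± 2.83% and 20.4 ± 2.69%. The SEPT3 group made up 27.6 ± 4.53% and 25.2 ± 5.22%, a share set almost wholly by Sept9. The ranges of these 3 shares overlapped between WT and KO. Sept7 made up 16.7%, 16.8% and 16.2% in WT and 17.3%, 17.9% and 19.0% in KO, which did not overlap. Sept3 itself was so low that its difference had little effect on these shares. All shares rest on the full exon length, over which Sept2 was at 61.6 TPM and Sept5 at 4.54 TPM in WT. Over unshared bases only, they were at 106 and 27.9 TPM, so the SEPT2 group's share would be larger and the others smaller.

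**Figure D4:**
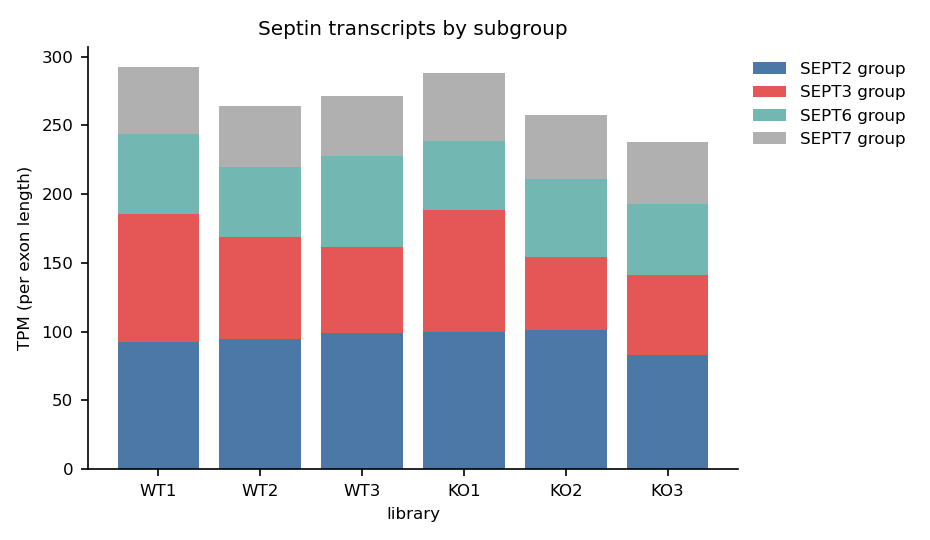
Summed level of the 13 septins per exon length in TPM (vertical axis, starting at 0) in each library, stacked by subgroup. Total height runs from 238 TPM in KO replicate 3 to 292 TPM in WT replicate 1, and all 4 subgroups are present in each library.

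The 4 mouse septins outside the 9 had few counts. Sept5, best known at synapses and in platelets, was at 3.74, 3.58 and 8.10 CPM in WT and 3.77, 1.285 and 2.38 CPM in KO (log2 fold change -1.12 ± 0.51). WT replicate 3 alone was high, and without it the log2 fold change was -0.61. Its unadjusted p was 0.049 by edgeR (adjusted p = 0.834) and 0.271 without WT replicate 3. Of its exon bases, 83.7% are shared with the same-strand genes Gp1bb (48.6%) and Gm49601 (56.3%). Gm49601 was not among the counted features. Gp1bb was, with 45 counts over the 6 libraries, so the Sept5 counts are uncertain where they overlap it. The level of Sept5 per length depends on how the overlap is treated. Over all its exon bases it was 4.54 ± 2.43 TPM in WT and 2.09 ± 1.15 TPM in KO. Over the 638 bases shared with neither gene it was 27.9 ± 14.9 TPM and 12.8 ± 7.08 TPM. Those 638 bases also leave out bases shared only with the uncounted Gm49601, so these last values may be too high. Sept4 had 0 to 17 counts per library and a log2 fold change of 0.45 ± 1.00, and Sept14 was at 0 in all 6 libraries. As a one-sided 95% bound, a count of 0 in a library allows a level of up to 3 counts, or 0.159 to 0.265 CPM depending on its depth. The upper end of the exact interval used for Sept3 would be 0.195 to 0.325 CPM.

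Genes near Sept3 on chromosome 15 had smaller differences between the groups. Of 23 other features of the table that start within 300 kb of its start, 10 were tested, 6 below and 4 above 0, with log2 fold changes from -0.66 to 0.28. The groups overlapped for all 10. Srebf2, a regulator of sterol synthesis, was at -0.06 ± 0.17. Wbp2nl, the next gene downstream in the table, was at 0 in all 6 libraries.

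Genes whose levels over the 6 libraries were nearest to Sept3 were found by the root mean square distance between log2 CPM values, each centred on its gene's mean. Among the 11288 protein-coding genes averaging at least 1 CPM, the 5 nearest were Stra6l, related to the retinol transporter Stra6 (distance 0.32), Tk1, the cytosolic thymidine kinase (0.36), Casc1, of axonemal dynein (0.36), Zfp568, a KRAB zinc-finger gene (0.36), and Pot1a, which binds telomere ends (0.37). The median distance of all these genes from Sept3 was 1.01. Stra6l was at 3.08, 3.18 and 1.69 CPM in WT and 1.09, 0.818 and 0.529 CPM in KO, and Casc1 at 5.0, 4.26 and 4.50 CPM in WT and 1.81, 1.75 and 1.06 CPM in KO. In all 5 the KO libraries lay below the WT libraries, which follows from likeness to Sept3. No other septin was as near as these 5, the closest being Sept5 (0.80) and Sept1 (0.86).

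Among dendritic cells Sept3 is known as a cDC1 transcript, and other cDC1 markers were set beside it. Of 25 tested cDC1 markers (Sept3 not among them), 18 lay below 0 and 7 above. Their median was -0.38 on the log2 fold change scale, and 7 had an unadjusted p under 0.05, all lower in KO, against 3.06% of all genes. The groups did not overlap with KO lower for 5 of the 25 (5.19% of all genes tested) and with KO higher for 1 (5.46%). The 5 nearest to Sept3 were Wdfy4, needed for cross-presentation (0.58), Ppt1, a lysosomal thioesterase (0.63), Xcr1, the chemokine receptor of cDC1s (0.64), Cd8a (0.72) and Itgax, which encodes CD11c (0.72). Their lower values in KO follow from this choice by likeness. A gene at the same level in all 6 libraries would lie 0.97 from Sept3. Xcr1 was at 13.5, 44.6 and 13.1 CPM in WT and 9.42, 5.72 and 11.4 CPM in KO, so WT replicate 2 stood far above the rest. Cd8a, carried by lymph-node-resident cDC1s, was at 54.02, 140.5 and 35.4 CPM in WT and 34.2, 30.2 and 47.3 CPM in KO, with overlapping groups. Sept3 was also highest in WT replicate 2, at 6.22 CPM, with 5.66 CPM in WT replicate 1 and 4.02 CPM in WT replicate 3. Its log2 fold change without WT replicate 2 was -1.89. Irf8 (0.12 ± 0.14) and Batf3 (0.09 ± 0.15), the transcription factors of the lineage, lay at distances of 1.04 and 1.00 from Sept3. Whether the mix of resident and migratory cDC1s differed between the sorts, and its part in the Sept3 values, was not tested.

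**Figure D5:**
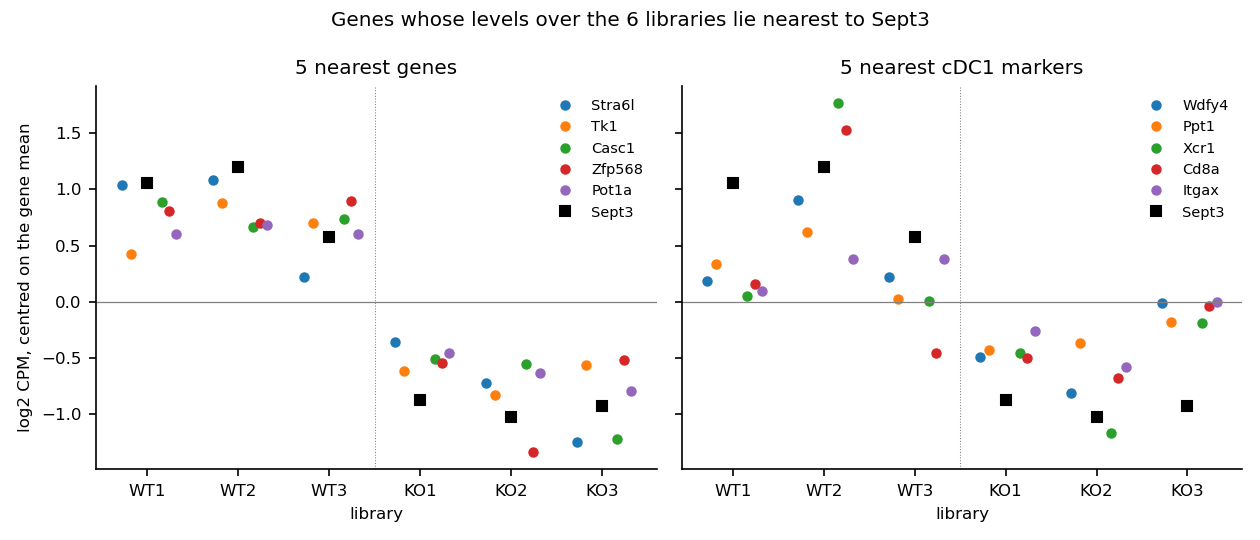
Log2 CPM centred on each gene's mean over the 6 libraries (vertical axis) for Sept3 (black squares) and for the 5 nearest protein-coding genes (left) or the 5 nearest cDC1 markers (right); libraries are on the horizontal axis and points are shifted sideways for clarity. Sept3 runs from 0.58 to 1.20 in WT and from -1.03 to -0.88 in KO, and Xcr1 and Cd8a peak in WT replicate 2 alone.

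The genes that act with septins were read from a list of 25, of which 22 were tested. They include the CDC42 effector genes (Cdc42ep), whose products bind septins, and non-muscle myosin, which septin filaments scaffold. Of these, 13 lay above 0 and 9 below (median 0.04), and 0 had an adjusted p under 0.05 by edgeR. At an unadjusted p under 0.05, 2 were higher in KO and 0 lower, where 2.71% of all genes were higher. These were Stx4a, a SNARE of the plasma membrane (0.33 ± 0.12), and Myl12a, a myosin regulatory light chain (0.52 ± 0.19). Stx4a was at 123, 119 and 117 CPM in WT and 149, 144 and 158 CPM in KO, with no overlap. Of the 22, it was the 1 without overlap and with KO higher (5.46% of all genes tested). Arhgef18 (-0.60 ± 0.29) was the 1 without overlap and with KO lower (5.19%). Myl12a was at 220, 223 and 209 CPM in WT and 209, 366 and 360 CPM in KO, where KO replicate 1 lay with the WT libraries. Cdc42ep3 (-0.05 ± 0.12) was the CDC42 effector gene with the highest level, at 102.5 to 117.8 CPM over all libraries.

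Cytokinesis, the step of division in which septins were first described, gave no common direction. Of 15 listed genes, all tested, 7 lay above 0 and 8 below (median -0.05). The smallest p-values were those of Mki67, a marker of cycling cells, and Prc1, which bundles spindle microtubules. Mki67 was at 57.4, 49.6 and 61.7 CPM in WT and 32.2, 23.6 and 48.9 CPM in KO (-0.72 ± 0.23), and was 1 of the 15 with an unadjusted p under 0.05, lower in KO as were 3.06% of all genes. Prc1 was at 2.47, 4.33 and 1.11 CPM in WT and 0, 0.409 and 2.47 CPM in KO (-1.59 ± 0.87), with overlapping groups. Neither passed after adjustment (edgeR adjusted p = 0.834 for both). Anln, which links septins to the contractile ring, was at 0 to 2.39 CPM.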

How the data were processed

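Read counts per gene in 6 libraries were deposited as raw counts by the authors, per the file headers and values, with no normalization. The submitters' processing notes name mm10, HISAT2 2.0.5 and HTSeq. No source used here gives the annotation release, the strand setting or the handling of multiply matching reads. Columns were matched to samples by the library label in each description. GENCODE M21 (mm10) named 32235 of 32285 features, and the feature with the highest count was used where a symbol had several.

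Genes were kept by filterByExpr (12568), given TMM factors, expressed as counts per 1000000 (CPM) and tested on the counts by the quasi-likelihood method of edgeR 4.0.16 (R 4.3.3; glmQLFit with robust and without legacy estimation). P-values were adjusted by Benjamini-Hochberg and called under 0.05. The SE is the log2 fold change divided by the square root of F. DESeq2 1.42.0 and limma-voom (limma 3.58.1) were alternatives. The test was checked on simulated counts. The named genes were the septins, Vps33b, the 2 genes with the smallest p of 2 lists, and the 5 genes and 5 cDC1 markers nearest to Sept3. Irf8, Batf3, Clec9a, Srebf2, Wbp2nl, Siglech, Ly6d, Cd14, Arhgef18, Cdc42ep3, Anln, Mbp and the nerve genes at 0 were chosen after their values were seen. The members and lists were chosen with earlier results of these data known.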

Additional observations from a re-analysis of the deposited data

How the results depend on the processing

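The log2 fold change of Sept3 kept its sign in all 15 alternatives, between -2.18 and -1.89, and its adjusted p lay between 0.0613 (DESeq2) and 1, with 0 of 15 under 0.05. With the replicate number as a replicate block it was -2.04, and no count of calls moved by over 1.5 times under the block. Same-numbered libraries did not vary together (correlations of deviations from group means of -0.001 to 0.028), so numbers were not used as pairs. Sept9 changed sign without WT replicate 1 (0.04) and without KO replicate 2 (0.01), in a range of -0.31 to 0.04 with each library left out. Sept11 did so without WT replicate 1 (range -0.03 to 0.52) and Sept4 without WT replicate 2 (range -0.03 to 0.73). Sept4 was tested in 12 of the 15 alternatives. The other tested septins kept their sign in each one. Genes with an adjusted p under 0.05 numbered 3 with no expression filter and 10 with DESeq2, against 0, and 0 to 7 with each library left out. Genes with an unadjusted p under 0.05 numbered 376 to 1621 with each library left out, against 725 (the highest without KO replicate 1, the lowest without KO replicate 2, and 444 with KO replicate 3 left out). Of the 9 members, 1 to 2 had an unadjusted p under 0.05 with each library left out; the second was Sept2 without KO replicate 1. Sept5 is outside the 9. Its unadjusted edgeR p was under 0.05 without WT replicate 1 (0.0337), WT replicate 2 (0.0301) or KO replicate 1 (0.0282). It was above 0.05 without WT replicate 3 (0.271), KO replicate 2 (0.204) or KO replicate 3 (0.0855). Other scaling or filters in edgeR gave 0.032 to 0.0475. The p was above 0.05 with DESeq2 (0.0698), limma-voom (0.0647), and edgeR without robust estimation (0.0548), with the replicate block (0.0613) or with legacy estimation (0.0673). In the order of levels, 4 of 9 septins kept their rank when CPM was used with no length term, 6 with the longest transcript and 7 with unshared exon length, and Sept3 was last in each. Legacy quasi-likelihood estimation and unshared exon length were added after the data were examined. At 15 to 21 counts per KO library, the Sept3 level is limited by depth.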
